A study of Mus musculus with 8 samples.

Results

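Glucocorticoid response genes are described here in the cerebral cortex and striatum of 2 inbred mouse strains. The 10 genes were chosen by name, as the corticosteroid receptors and brain genes known to respond to glucocorticoids: Nr3c1, Nr3c2, Fkbp5, Sgk1, Tsc22d3, Zbtb16, Pdk4, Hsd11b1, Sult1a1 and Plin4. They were represented by 20 of the 56605 probes, out of 37074 gene names on the array. The samples were 4 B6 mice (C57BL/6J, 4 months of age) and 4 BTBR/R mice (BTBRTF/ArtRbrc, 6 months of age for replicate 1 and 4 months for the others), all male and with no treatment named in the labels, with 1 mouse per 1-colour Agilent array. BTBR mice are an inbred model of autism spectrum disorder. By the methods, BTBR/R mice came from the RIKEN BioResource Research Center and were kept at 2 universities, and B6 mice were bought from a breeder and kept at 1 of them, so strain cannot be told apart from source and housing. No gene was targeted, and corticosterone was not measured in the files used here. Each array holds cortex and striatum of a mouse in 1 sample, so the regions cannot be told apart, and the hour of dissection is not given in the sources used here.

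Glucocorticoids, of which corticosterone is the main one in mice, enter cells and bind the glucocorticoid receptor, which is held ready by a chaperone complex, moves to the nucleus on binding hormone and acts on its target genes. In the brain the mineralocorticoid receptor binds the same hormone with higher affinity, and local enzymes set how much active steroid reaches both receptors. Fkbp5 and Tsc22d3 are among the best known induced targets, and the Fkbp5 protein in turn lowers the receptor's affinity for hormone.

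Values are scaled signals: the log2 processed signal of a probe minus the 75th percentile of its array, so 0 marks that percentile. Changes are BTBR/R minus B6 on the log2 scale with limma's standard error (SE), and n is 4 mice of each strain throughout. Adjusted p-values are limma's, with Benjamini-Hochberg adjustment over all 56605 probes. The lead probe of a gene is its brightest among those detected, that is well above background, on all 8 arrays. A gene without such a probe is read at its brightest probe that all arrays of a strain detected, and failing that at its brightest probe. Levels of different probes are not comparable with each other.

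All arrays lay on 1 slide, with the B6 arrays in a line of their own and the BTBR/R arrays in the other line, which leaves position on the slide inseparable from strain. The lowest detected signal of an array ranged from 14.5 to 17.8 for B6 and from 36.1 to 47.1 for BTBR/R, and 64.5% to 66.8% of probes were detected in B6 mice and 53.5% to 57.2% in BTBR/R mice. Of the 14874 probes detected on no array, 67.7% passed as higher in BTBR/R mice, so no direction was read from such probes. Cortical and striatal neuron markers, 6 and 9 genes, were all detected on all 8 arrays.

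Of their 20 probes, 17 were detected on all 8 arrays and 3 on none. None of the 17 differed by at least 2-fold at an adjusted p below 0.05, against 4.41% of the 35539 probes that all 4 arrays of either strain detected. Of the 28547 probes detected on all 8 arrays, as these 17 were, 298 were called higher and 330 lower. limma's unadjusted p was below 0.05 for 8 of the 17, none of them at 2-fold, that is 47.1% against 35.9% of the 28547 probes detected on all 8 arrays, and the methods' t-test also called 0. At any fold, 6 of the 17 passed the adjusted p, 3 higher and 3 lower in BTBR/R mice, against 26.9% (13.0% higher, 13.9% lower) of all probes so detected. With scaling by spike-in probes the split was 4 higher and 0 lower. The median change of the 17 probes was 0.00, and their median size of change was 0.19, against 0.12 over all detected probes. By lead probe, Zbtb16 and Pdk4 rose, Tsc22d3 and Hsd11b1 fell, and the other 6 genes did not pass, while 28.4% of all 18857 genes with such a lead probe passed, 13.9% higher and 14.4% lower. The 4 mice of each strain did not overlap at the lead probes of Zbtb16, Pdk4, Hsd11b1 and Plin4, as at 34.9% of all lead probes.

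**Figure D1:**
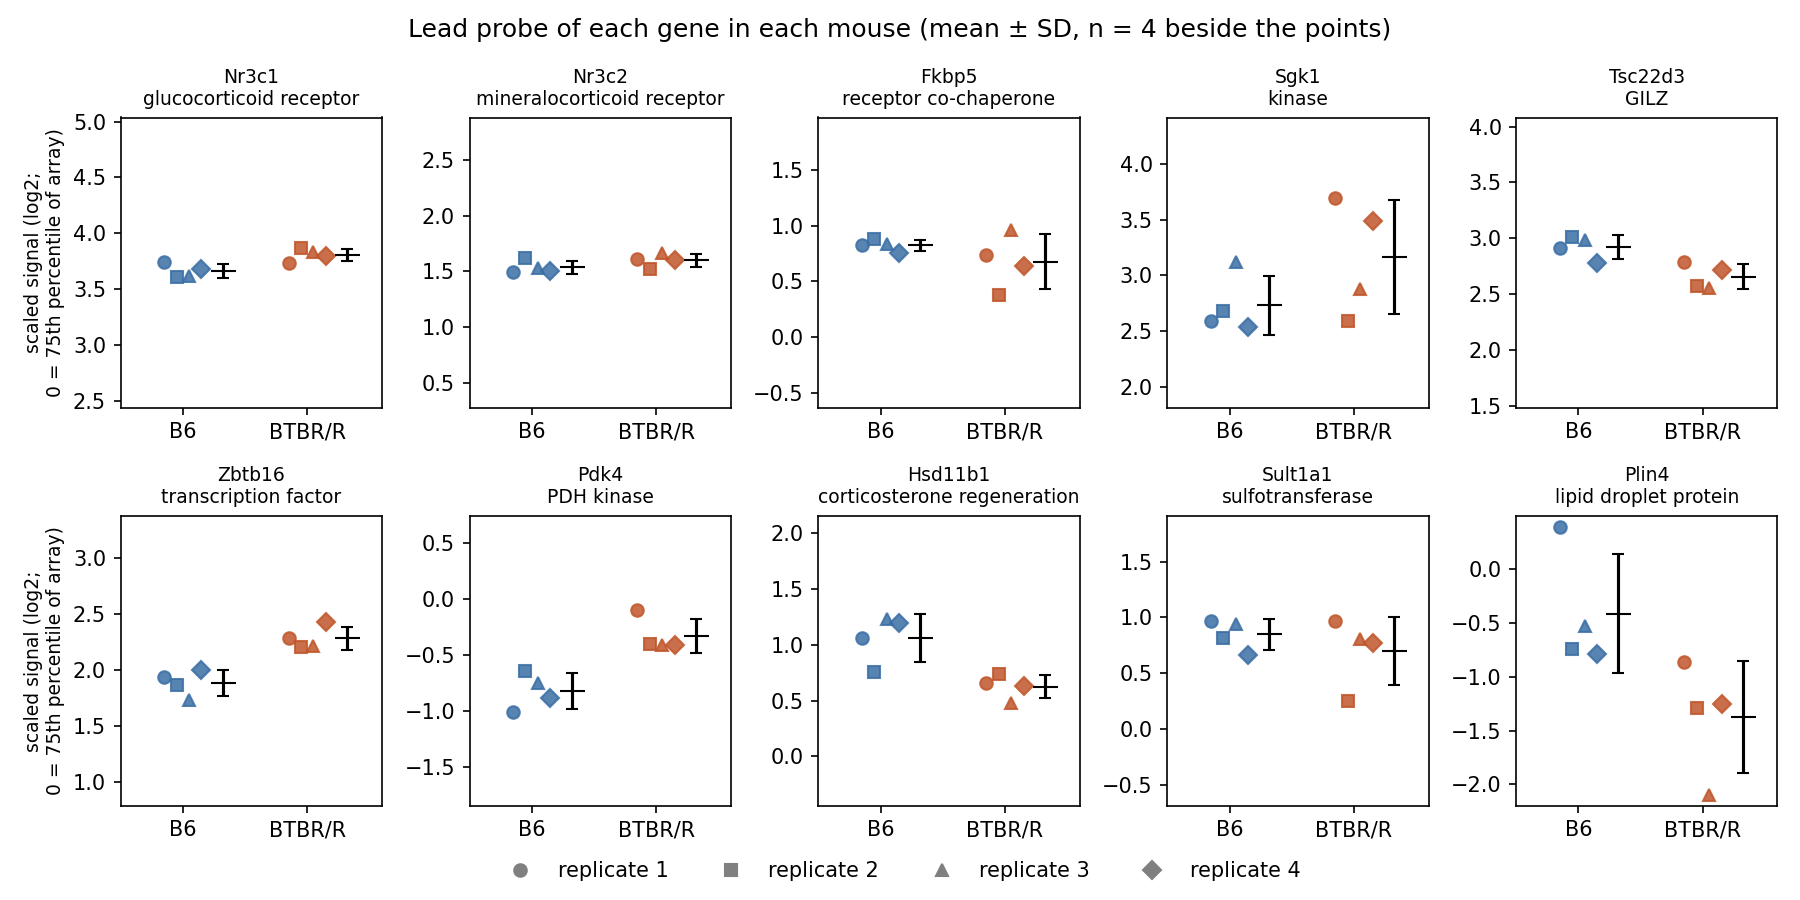
Scaled signal (log2, vertical axis, with the same minimum span in each panel) of the lead probe of each of the 10 genes in each B6 and BTBR/R mouse; symbols mark the replicate, and the bar beside the points is the mean ± SD of 4 mice. The strains do not overlap for Zbtb16, Pdk4, Hsd11b1 and Plin4, while the points of the receptors Nr3c1 and Nr3c2 lie close together.

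The receptors came first. Nr3c1, the glucocorticoid receptor, had scaled signals of 3.74, 3.61, 3.62 and 3.68 in B6 mice 1 to 4 and of 3.74, 3.86, 3.83 and 3.79 in BTBR/R mice 1 to 4 at its lead probe. The strains touched at replicate 1 of each and were otherwise apart by little. The change was 0.14 (SE 0.05, limma adjusted p = 0.0674), a 1.10-fold difference. Its second probe read 3.50, 3.42, 3.37 and 3.43 in B6 mice and 3.46, 3.27, 3.36 and 3.51 in BTBR/R mice. BTBR/R mice 2 and 3 lay below every B6 mouse and mouse 4 just above, and the change was -0.03 (SE 0.07, limma adjusted p = 0.737). The lead probe passed the adjusted p with scaling by spike-in probes (0.26, limma adjusted p = 0.0126, where the median change of all detected probes was 0.12), with the fit limited to probes detected on all 8 arrays (adjusted p = 0.0485), by the methods' t-test (adjusted p = 0.0395) and with limma's trend and robust options (adjusted p = 0.0183). It did not pass in the other 16 of 20 alternatives. Within a mouse, the difference between the 2 probes was larger in BTBR/R mice by 0.17 (two-sided exact permutation p = 0.0286, 0.0762 after adjustment over the 8 probe pairs compared).

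Nr3c2, the mineralocorticoid receptor, was covered by 3 probes on mm9 chromosome 8. The lead probe (chr8:79768704-79768763) read 1.49, 1.62, 1.53 and 1.504 in B6 mice and 1.61, 1.52, 1.66 and 1.61 in BTBR/R mice, with a change of 0.06 (SE 0.05, limma adjusted p = 0.389). A second probe (chr8:79766784-79766843) read -1.24, -1.07, -1.15 and -1.27 against -1.18, -0.67, -0.89 and -1.24. There BTBR/R mice 2 and 3 stood above every B6 mouse and mice 1 and 4 lay among them. The change of 0.19 (SE 0.13) did not pass (limma adjusted p = 0.303), and ran from 0.08 to 0.27 when a mouse was left out. The dimmest probe (chr8:79432389-79432448) changed by 0.00 (SE 0.06, limma adjusted p = 0.963). No probe of Nr3c2 passed under any of the 20 alternatives.

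Hsd11b1 encodes the reductase that regenerates active corticosterone from its inert keto form inside cells. Its single probe (mm9 chr1:195048169-195048228) read 1.06, 0.76, 1.23 and 1.19 in B6 mice and 0.66, 0.74, 0.48 and 0.63 in BTBR/R mice. All BTBR/R mice lay below all B6 mice, with a narrow gap between B6 mouse 2 and BTBR/R mouse 2. It fell by 0.43 in BTBR/R mice (SE 0.11, limma adjusted p = 0.0201), a 1.35-fold difference. In bulk tissue fewer cells of a type and less RNA per cell cannot be told apart. Hsd11b1 did not pass the adjusted p in 7 of 20 alternatives. Among them were leaving out B6 mouse 3 (-0.38, limma adjusted p = 0.0520), B6 mouse 4 (-0.39, adjusted p = 0.0525) or BTBR/R mouse 3 (-0.39, adjusted p = 0.0520). So were normexp background correction (-0.30), scaling by spike-in probes (-0.32) and a floor at the highest detection limit.

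Fkbp5, the co-chaperone of the receptor's feedback loop, gave different answers at its 2 detected probes. The lead probe (mm9 chr17:28536060-28536119) and the second (mm9 chr17:28574995-28575054) both lie on the minus strand. The sequences are shown because the result depends on which probe is read. They are those deposited for the array, written in lower case, with the whole second probe and the first 30 bases of the lead. Capitals mark 16-base words that recur elsewhere.
Fkbp5 second probe: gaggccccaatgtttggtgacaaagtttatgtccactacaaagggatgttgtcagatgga
Fkbp5 lead probe, first 30 bases: ggGAGGCCCTGTCTCAAAACAAAACAAAAA
Over its 60 bases the lead probe shared a word of 16 bases with 5 probes of other genes and with 17 of 32851 RefSeq promoters. The second probe shared none with either. The 17 other probes searched, this one among them and those of Nr3c1 left out, shared words with at most 2 promoters and with 0 probes of other genes. The part of the recurring words in the difference between the 2 probes was not tested.

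At the lead probe, Fkbp5 read 0.83, 0.88, 0.83 and 0.76 in B6 mice and 0.73, 0.37, 0.96 and 0.64 in BTBR/R mice. The BTBR/R mice spread on both sides of the B6 mice, and the change was -0.15 (SE 0.12, limma adjusted p = 0.369). It ran from -0.24 to -0.05 when a mouse was left out. At the second probe Fkbp5 read -1.63, -1.58, -1.32 and -1.54 in B6 mice and -0.995, -1.26, -0.80 and -0.95 in BTBR/R mice. Every BTBR/R mouse stood above every B6 mouse there, and the signal rose by 0.52 (SE 0.11, limma adjusted p = 0.00902), a 1.43-fold difference that passed in all 20 alternatives, with changes from 0.45 to 0.63. The other probe (mm9 chr17:28634702-28634761) was detected on no array. Within a mouse, the lead probe exceeded the second by 2.34 ± 0.15 (SD) in B6 mice and by 1.68 ± 0.08 in BTBR/R mice, without overlap. That shift of -0.66 had p = 0.0286 in the exact permutation test, the smallest that 4 against 4 mice can give, and 0.0762 after adjustment. A pair at that smallest p could pass only if more of the 8 pairs reached it too. The adjusted value therefore cannot decide on the shift of Fkbp5, nor on those of Nr3c1 and Zbtb16. Of the 8 pairs, 5 had p of 0.343 or more in that exact test.

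**Figure D2:**
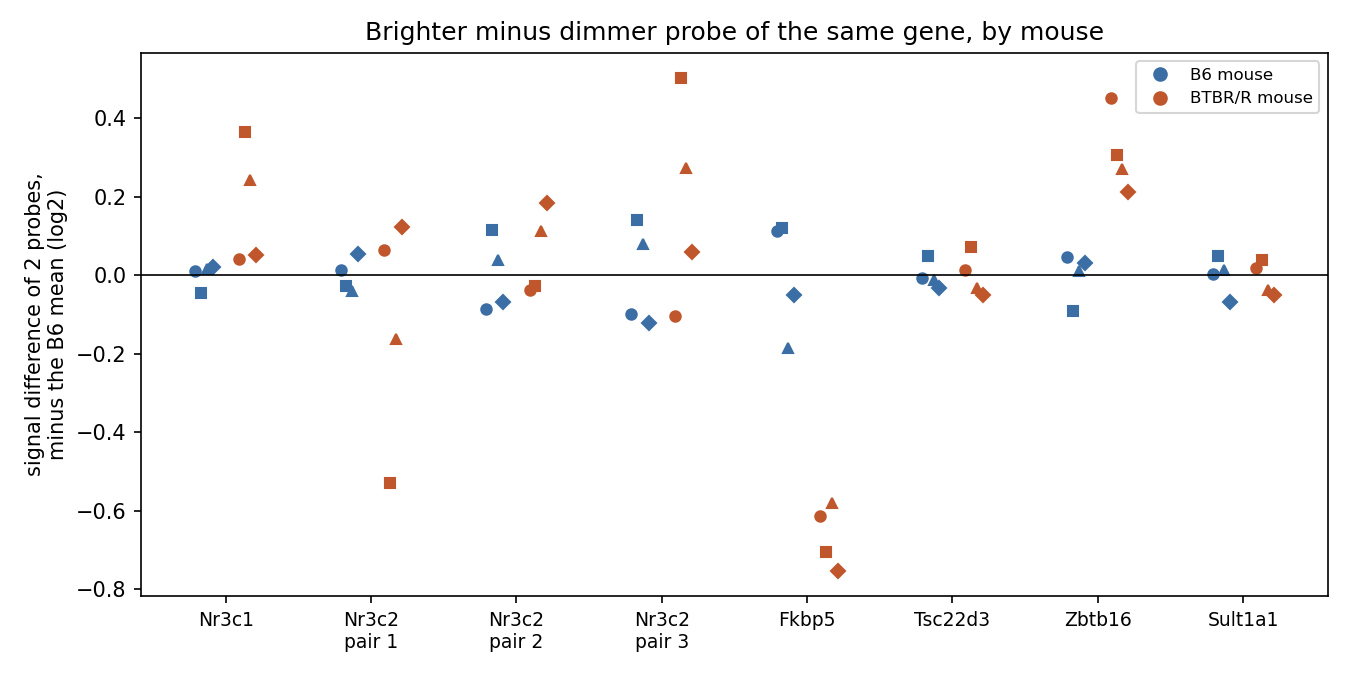
Brighter minus dimmer probe of the same gene in each mouse, relative to the mean of the B6 mice (log2, vertical axis), for the 8 pairs of probes detected on all arrays; symbols mark the replicate as in the plot of levels. The BTBR/R mice lie below all B6 mice for Fkbp5 (shift -0.66), above them for Zbtb16 (0.31) and Nr3c1 (0.17), and among them for Tsc22d3 (0.00) and Sult1a1 (-0.01).

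Sgk1 encodes a serum- and glucocorticoid-regulated kinase that acts on ion channels and transporters. Of the RefSeq promoters of these genes (15 promoters of 8 genes, from 250 bases before to 50 bases after a start, GRCm38.p6), 1 promoter of Sgk1 held the glucocorticoid response element searched as GNACANNNTGTNC on both strands. The same letters were in 0.475% of all 32851 promoters. Sgk1 had 6 of the 15 promoters, more than any other of the 8 genes. A single arm of the element, AGAACA on either strand, which overlaps it, was in 5 of the 15 promoters and in 19.0% of all. The promoter with the full element is shown because Sgk1 is a textbook target of the receptor. Its 250 bases before the start lie at chr10:21993640-21993889 (GRCm38.p6, plus strand), and capitals mark the matches of the element and its arms.
Sgk1 promoter: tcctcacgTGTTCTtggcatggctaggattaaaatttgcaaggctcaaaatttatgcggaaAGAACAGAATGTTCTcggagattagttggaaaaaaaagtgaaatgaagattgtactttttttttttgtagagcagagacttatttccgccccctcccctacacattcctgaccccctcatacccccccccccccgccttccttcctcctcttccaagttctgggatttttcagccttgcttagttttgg

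The lead probe of Sgk1 (mm9 chr10:21719390-21719449) read 2.59, 2.68, 3.12 and 2.54 in B6 mice and 3.69, 2.59, 2.88 and 3.49 in BTBR/R mice. BTBR/R mice 1 and 4 stood above every B6 mouse, and mice 2 and 3 lay within the B6 range. The change was 0.43 (SE 0.26), and it did not pass (limma adjusted p = 0.240) here or in any of the 20 alternatives. It ran from 0.26 (without BTBR/R replicate 1) to 0.62 (without BTBR/R replicate 2) when a mouse was left out. The SD among BTBR/R mice was 0.51, against 0.27 among B6 mice. A second probe (mm9 chr10:21618550-21618609) was detected on no array.

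Tsc22d3, which encodes the glucocorticoid-induced leucine zipper protein GILZ, an anti-inflammatory target, lay lower in BTBR/R mice at both detected probes. The lead probe (mm9 chrX:137074094-137074153) read 2.92, 3.01, 2.99 and 2.78 in B6 mice and 2.78, 2.57, 2.55 and 2.72 in BTBR/R mice. B6 mouse 4 and BTBR/R mouse 1 met, and the other mice were apart. It fell by 0.27 (SE 0.08, limma adjusted p = 0.0320), a 1.20-fold difference. The second probe (chrX:137074801-137074860), which read 1.68, 1.72, 1.76 and 1.56 against 1.52, 1.25, 1.34 and 1.52 without overlap, also fell by 0.27 (SE 0.08, limma adjusted p = 0.0343). Each probe did not pass in 8 of 20 alternatives, among them with scaling by spike-in probes (-0.15 at each, limma adjusted p = 0.260 and 0.294) and with the floor. Others were without B6 replicate 1, 2 or 3 or BTBR/R replicate 2 or 3, where the lead probe's limma adjusted p was 0.0643, 0.0827, 0.0809, 0.0754 and 0.0783. The other probe (mm9 chrX:137077828-137077887) was detected on no array.

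Zbtb16, a zinc finger transcription factor that glucocorticoids induce in many tissues, rose at its lead probe (mm9 chr9:48462419-48462478). It read 1.94, 1.86, 1.73 and 1.997 in B6 mice and 2.29, 2.20, 2.22 and 2.43 in BTBR/R mice. Every BTBR/R mouse was above every B6 mouse. The change was 0.40 (SE 0.08, limma adjusted p = 0.00543), a 1.32-fold difference, and it passed in all 20 alternatives with changes from 0.35 to 0.52. A dimmer probe, whose 60 bases span 52017 bases of mm9 (chr9:48473399-48525415) and so cross an intron, read -1.92, -1.85, -2.09 and -1.84 against -1.98, -1.91, -1.86 and -1.59. BTBR/R mouse 4 alone stood above the B6 mice, and the change was 0.09 (SE 0.10, limma adjusted p = 0.515). The shift of 0.31 between the probes had p = 0.0286 by the exact permutation test and 0.0762 after adjustment.

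Pdk4 encodes a kinase that switches off pyruvate dehydrogenase and spares glucose. Its single probe (mm9 chr6:5433441-5433500) read -1.01, -0.64, -0.75 and -0.89 in B6 mice and -0.10, -0.40, -0.41 and -0.41 in BTBR/R mice. Every BTBR/R mouse was above every B6 mouse, and mouse 1 was the highest. The signal rose by 0.49 (SE 0.11, limma adjusted p = 0.00896), a 1.41-fold difference, and by 0.41 without BTBR/R replicate 1 (adjusted p = 0.0146).

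Sult1a1, a sulfotransferase of phenols that glucocorticoids induce, was covered by 2 overlapping probes (mm9 chr7:133816605-133816664 and chr7:133816657-133816716). The lead probe read 0.97, 0.82, 0.94 and 0.66 in B6 mice and 0.97, 0.25, 0.81 and 0.77 in BTBR/R mice. BTBR/R mouse 2 was low and the others lay within the B6 range. The change was -0.15 (SE 0.16, limma adjusted p = 0.498) and 0.00 without that mouse, and the second probe changed by -0.14 (SE 0.16, limma adjusted p = 0.537).

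Plin4, a coat protein of lipid droplets, had the widest spread among mice of these genes' detected probes. Its probe (mm9 chr17:56240055-56240114) read 0.39, -0.74, -0.54 and -0.79 in B6 mice and -0.87, -1.30, -2.10 and -1.25 in BTBR/R mice. All BTBR/R mice lay below all B6 mice, with B6 mouse 1 high and BTBR/R mouse 3 low. The change was -0.96 (SE 0.34), a 1.94-fold difference that did not pass (limma adjusted p = 0.0623). Without BTBR/R replicate 1, the mouse of 6 months, the change was -1.13 (adjusted p = 0.0487), and without B6 replicate 1 it was -0.69 (adjusted p = 0.108). It also passed with limma's trend and robust options (adjusted p = 0.0376).

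**Figure D3:**
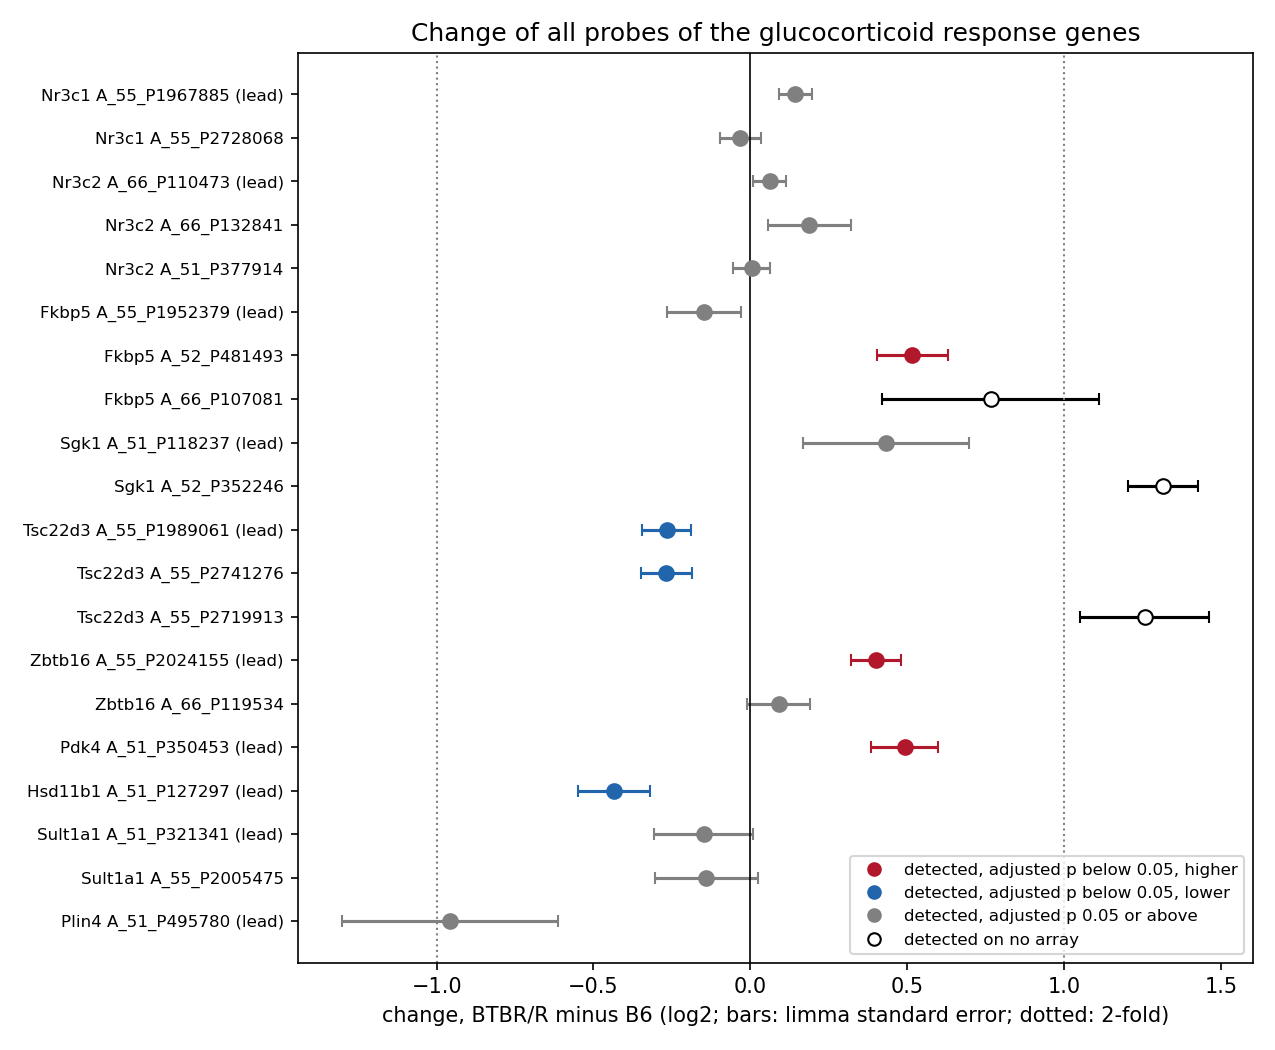
Change of each of the 20 probes, BTBR/R minus B6 (log2, horizontal axis), with limma's standard error as bars and dotted lines at 2-fold; open circles are the 3 probes detected on no array, from which no direction was read. Of the 17 detected probes, 3 passed as higher (Fkbp5 second probe, Zbtb16 lead, Pdk4) and 3 as lower (Tsc22d3 at both probes, Hsd11b1), all below 2-fold.

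Marker levels stand beside these results as sums of linear signal relative to the 75th percentile. Of the 9 immediate early genes, 7 passed as higher in BTBR/R mice, and their sum was 30.1 to 78.1 in B6 mice and 114 to 139 in BTBR/R mice. Red blood cell markers (3 of the 4 detected on all arrays passed as lower) summed to 80.8 to 267 and 55.0 to 68.3, and astrocyte markers (4 of 8 lower) to 346 to 387 and 283 to 322. Endothelial markers (3 of 8 lower, 1 higher) summed to 38.1 to 42.8 and 33.6 to 35.6. The sums of the immediate early, red blood cell, astrocyte and endothelial markers each had no overlap between strains. Oligodendrocyte markers (2 of 8 lower) summed to 200 to 254 and 181 to 204, and choroid plexus markers, none of which passed, to 3.01 to 41.8 and 6.61 to 26.2. Microglia markers (3 of 7 lower, 1 higher) summed to 113 to 121 and 111 to 119. Of the 9 striatal neuron markers only Pde10a passed, lower and at 2.09-fold (limma adjusted p = 2.49e-05), and their sum was 200 to 214 and 182 to 209. Of the cortical neuron markers 1 of 6 was higher, of the mural cell markers 1 of 6 was lower, and no meningeal marker passed. Of all these lists, Slc4a1 of the red blood cells and Slc4a5 of the choroid plexus were not detected on all arrays. Against these counts stand the 13.9% of all genes by lead probe that passed as higher and the 14.4% that passed as lower. The part of these levels in the changes of Hsd11b1, Tsc22d3, Zbtb16, Pdk4 and Fkbp5, or of the pathway genes below such as Mt1 and Mt2, was not tested.

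The rest of the pathway was read from 4 lists of 75 genes in all, of which 66 had a lead probe detected on all 8 arrays. Of the 66, 12 rose and 11 fell in BTBR/R mice at any fold, against 28.4% of genes in either direction. With scaling by spike-in probes, which moved the median change of all detected probes to 0.12, 18 rose and 5 fell. The median change over the 66 was 0.01. At 2-fold, Dusp1 was called higher and Mt2 and Map3k6 lower. That is 3 of the 68 genes whose lead probe all 4 arrays of either strain detected, against 4.41% of all such genes (1.08% higher, 3.33% lower). All 3, and 66 of the 68, had a lead probe detected on all 8 arrays. Of the 18857 genes with such a lead probe, 198 were called higher and 222 lower.

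Steroid supply and metabolism had 5 genes detected on all arrays, of which 2 fell and none rose, against 14.4% and 13.9% of all genes by lead probe. H6pd, which makes the NADPH that Hsd11b1 uses in the endoplasmic reticulum, read -0.94, -0.99, -1.03 and -1.05 in B6 mice and -1.52, -1.69, -1.64 and -1.54 in BTBR/R mice. The strains were far apart relative to their spread, and H6pd fell by 0.60 (SE 0.06, limma adjusted p = 7.49e-05), passing in all 20 alternatives with changes from -0.63 to -0.48. Srd5a1, a reductase of steroid hormones, fell by 0.30 (SE 0.06, limma adjusted p = 0.00409). The exporter Abcb1a, which limits the entry of some steroids into the brain, changed by -0.15 at its lead probe (limma adjusted p = 0.0586). A dim second probe of Abcb1a was called lower (limma adjusted p = 5.15e-05), but its B6 mean of -4.35 lay under the detection limits of the BTBR/R arrays (-3.97 to -3.55), so no direction was read from it. Hsd11b2 and Serpina6 were detected on no array.

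The receptor's chaperones and cofactors had mostly small changes. All 18 were detected on all arrays, 2 passed as higher and none as lower, against 13.9% and 14.4% of all genes by lead probe, and the median size of change was 0.06, against 0.12 over all genes. St13, a co-chaperone of the receptor complex, read 1.15, 1.42, 1.19 and 1.25 in B6 mice and 1.63, 1.69, 1.71 and 1.72 in BTBR/R mice. The strains did not overlap, and St13 rose by 0.44 (SE 0.07, limma adjusted p = 0.00167). Bag1 rose by 0.13 (SE 0.04, limma adjusted p = 0.0365) but did not pass in 11 of 20 alternatives, and the coactivator Ncoa3 changed by 0.16 (limma adjusted p = 0.0612). The Hsp90 genes Hsp90aa1 and Hsp90ab1 changed by -0.08 and -0.05 and did not pass, and neither did Fkbp4, the co-chaperone that Fkbp5 opposes, at -0.10 (limma adjusted p = 0.413, 0.494 and 0.261).

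**Figure D4:**
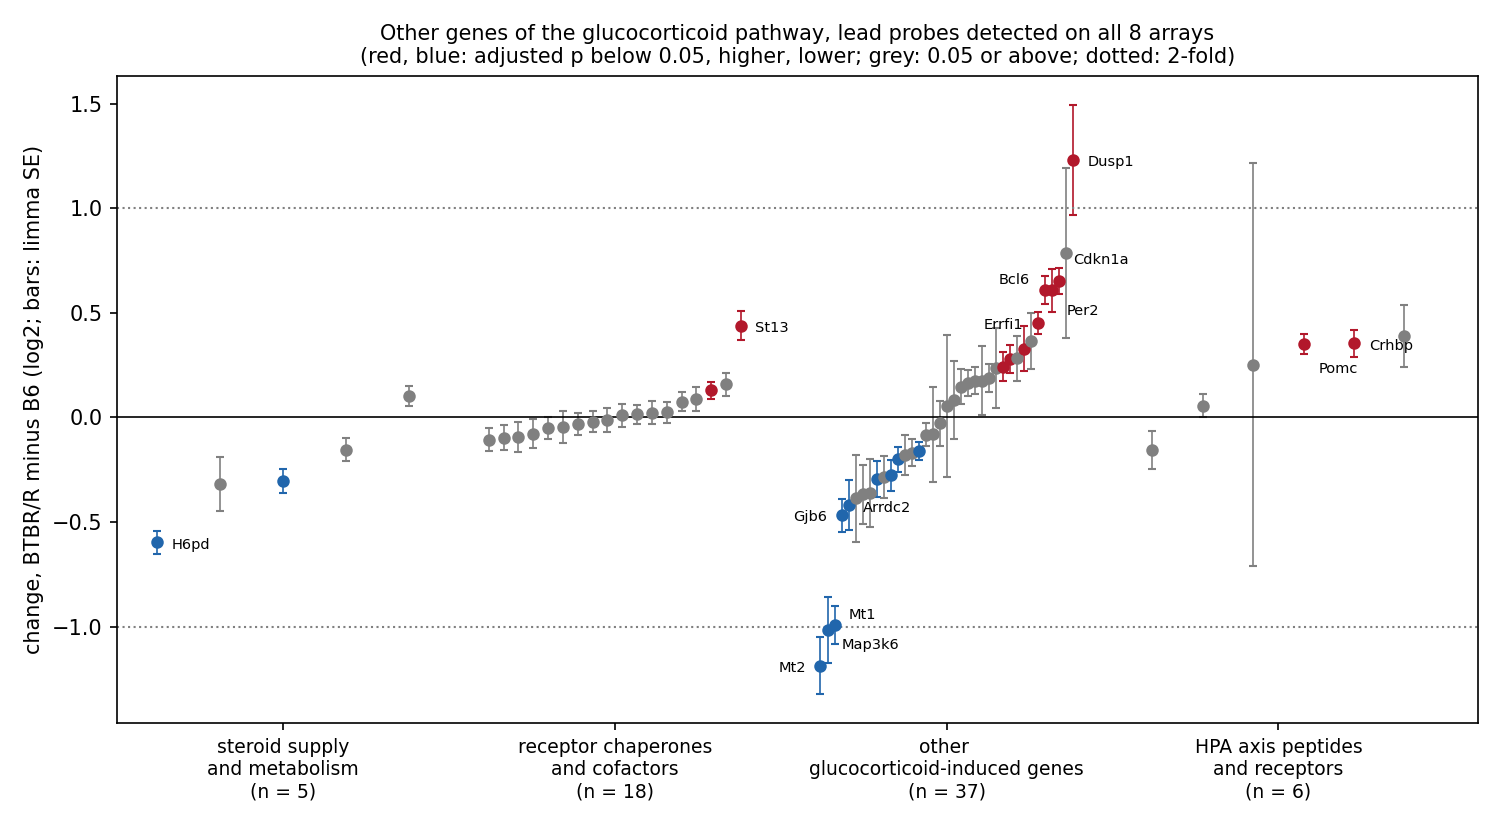
Change of the lead probe of each of the 66 other pathway genes detected on all 8 arrays, BTBR/R minus B6 (log2, vertical axis), by list and in order of change, with limma's standard error as bars. Dusp1 lies above 2-fold and Mt2 and Map3k6 below it, the chaperones and cofactors lie close to 0 apart from St13, and the other induced genes spread to both sides.

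The other glucocorticoid-induced genes spread to both sides: of 37 detected on all arrays, 8 rose and 9 fell, against 13.9% and 14.4% of all genes. Dusp1, a phosphatase that shuts off MAP kinases and is also an immediate early gene of neuronal activity, read 0.64, 1.33, 1.998 and 1.32 in B6 mice and 2.55, 2.76, 2.48 and 2.41 in BTBR/R mice. It rose 2.34-fold (1.23, SE 0.26, limma adjusted p = 0.00808), beside the immediate early sums above, whose part in it was not tested. Cdkn1a, a cell cycle inhibitor, rose by 0.65 (SE 0.06, limma adjusted p = 9.34e-05), the repressor Bcl6 by 0.61 (SE 0.07, limma adjusted p = 0.000234) and the clock gene Per2 by 0.61 (SE 0.10, limma adjusted p = 0.00248). Per1, a clock gene and a direct target of the receptor, rose by 0.33 (SE 0.11, limma adjusted p = 0.0438). Per2, Per1, Srd5a1, Abcb1a and the Hsp90 genes with Fkbp4 were named after their values were seen.

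Among the genes that fell were the metallothioneins, metal-binding proteins that glucocorticoids and zinc induce. Mt2 read 6.55, 6.90, 6.83 and 6.30 in B6 mice and 5.59, 5.40, 5.43 and 5.43 in BTBR/R mice, and Mt1 read 7.39, 7.57, 7.60 and 7.24 against 6.56, 6.42, 6.47 and 6.38. Both were lower in every BTBR/R mouse. Mt2 fell by 1.19 (SE 0.14, limma adjusted p = 0.000278) and Mt1 by 0.99 (SE 0.09, limma adjusted p = 7.74e-05), a 1.99-fold difference. A dimmer probe of Mt1 changed by -0.29 (SE 0.33, limma adjusted p = 0.518). The genes are close paralogs, and cross-hybridisation between their probes was not tested. Map3k6, a stress kinase, fell by 1.02 (SE 0.16, limma adjusted p = 0.00153), and its change stayed short of 2-fold when B6 mouse 1 (-0.99), BTBR/R mouse 2 (-0.89) or BTBR/R mouse 3 (-0.96) was left out and with normexp background correction (-0.67) or scaling by spike-in probes (-0.90).

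The hypothalamic-pituitary-adrenal axis drives corticosterone release, and some of its peptides and receptors are also made in the cortex. Of 6 of its 11 genes detected on all arrays, 2 passed, near the 28.4% of all genes that passed, and both were higher: Crhbp, which binds and buffers corticotropin-releasing hormone, by 0.35 (SE 0.07, limma adjusted p = 0.00436) and Pomc, the precursor of corticotropin, by 0.35 (SE 0.05, limma adjusted p = 0.000832). Crhbp read -0.10, 0.07, 0.03 and 0.13 in B6 mice and 0.44, 0.27, 0.39 and 0.44 in BTBR/R mice, without overlap. Mc2r, the corticotropin receptor of the adrenal gland, was detected on no array.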

How the data were processed

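Total RNA of the cerebral cortex and striatum was labelled with Cy3 and hybridised to 1-colour Agilent mouse arrays, which were run by a company for the authors and read with Agilent Feature Extraction 10.7.3.1. The deposited files hold spot intensities, among them the processed signal after background subtraction, and the authors' deposited log2 values, which were scaled to the 75th percentile. Control spots (of 62976, 59305 were no controls) and outlier spots were left out and spots of 1 probe averaged. Processed signals were put on the log2 scale, the 75th percentile of each array was subtracted, and the values were fitted with limma 3.58.1 (lmFit, eBayes) in R 4.3.3 on all 56605 probes, with strain from the sample titles as the only term. A call needed an adjusted p below 0.05 and 2-fold, and detection on every array of at least 1 strain. Probe pairs were compared by exact permutation in scipy 1.17.1. The fit was tested on simulated data. The precision is limited by the number of arrays, 4 per strain.

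The genes and lists were chosen with earlier results of these data known, and p-values over a list alone were not computed. Every gene and probe of the 10 was named. From each pathway list were named the genes called at 2-fold and the 3 with the lowest adjusted p by lead probe. Gene names and mm9 positions were those of the arrays' annotation, without exons. Promoters were RefSeq's (GRCm38.p6), matched by symbol for 8 of the 10 genes. The alternatives were background correction, 5 scalings or normalizations, 2 filters, a floor, 2 other tests, the replicate number as a block and leaving out each mouse. A slide or scan block was not run, since all arrays shared both.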

Additional observations from a re-analysis of the deposited data

Results flagged for a closer look

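In 64 groups of 4 mice (detected probes of the 10 genes, and the lead probes of the pathway genes named by rule), 3 held a mouse far from the others by Dixon's ratio. Chance flags about 1 in 20 such groups. Pdk4 was -0.10 in BTBR/R replicate 1, the mouse of 6 months, and -0.41 to -0.40 in the other BTBR/R mice. Mt2 was 5.59 in that same mouse and 5.40 to 5.43 in the others. Cdkn1a was -0.0003 in B6 replicate 4 and -0.09 to -0.07 in the other B6 mice.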

How the results depend on the processing

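The rises of Zbtb16 (lead probe) and Fkbp5 (second probe) passed the adjusted p in all 20 alternatives that kept the probe. Pdk4 passed in 19 and Hsd11b1 in 13, and both probes of Tsc22d3 in 12. The probes that passed as lower, 3 of the 17, numbered 0 with scaling by spike-in probes, 0 with a floor at the highest detection limit, and 0 to 4 when a mouse was left out (0 without B6 replicate 3 or BTBR/R replicate 3, 4 without BTBR/R replicate 1). The cause was not tested. Counts at any fold were added as a result after seeing the data. Spike-in scaling, from 7 probes, moved the median change of detected probes to 0.12. The count called lower at 2-fold ran from 0 to 1 when a mouse was left out, the 1 being Plin4 without BTBR/R replicate 1, whose change ran from -1.13 to -0.689. With another probe in place of the lead, the change became -0.032 for Nr3c1, 0.52 or 0.77 for Fkbp5 and 1.26 for Tsc22d3, the last 2 from probes detected on no array. When a mouse was left out, Sult1a1 ran from -0.24 to 0.0001 at its lead probe and from -0.221 to 0.0233 at the other, turning without BTBR/R replicate 2. The second Nr3c1 probe was 0.0823 with spike-in scaling and ran from -0.0684 to 0.0125 when a mouse was left out. The dimmest Nr3c2 probe was -0.0232 with quantile normalization, -0.0238 with scaling by the median and -0.008 with the percentile of detected probes, and ran from -0.0301 to 0.0441 when a mouse was left out. The turned values of Nr3c1, Nr3c2 and Sult1a1 did not pass, and that of the second Fkbp5 probe did (0.52, adjusted p = 0.00902).

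Of the other pathway genes, those that rose numbered 20 (12 in the fit reported) with limma's trend and robust options. With spike-in scaling 18 rose and 5 fell (against 12 and 11). Those that fell numbered 7 to 13 when a mouse was left out (7 without B6 replicate 1 or 3). Counted over all their probes, not the lead probes alone, probes called lower numbered 2 to 6 (against 3), with 6 without B6 replicate 4. The 3 were those of Mt2 and Map3k6 and the dim Abcb1a probe from which no direction was read. Undetected probes turned for Serpina6 with quantile normalization (-0.14) and for Mc2r with normexp (-0.13). The floor gave no value for Hsd11b2, Serpina6 and Mc2r, which lay at it on every array.

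The replicate number was also the place of an array within its line, so same-numbered arrays of the strains shared that place on the slide. Over all detected probes, deviations of same-numbered mice correlated at 0.00, -0.07, -0.04 and 0.16. The part of place at single probes was not tested. With the replicate number as a block, 2 probes passed as higher and 1 as lower. Pdk4 (limma adjusted p = 0.0563), Hsd11b1 (0.0819) and the lead probe of Tsc22d3 (0.110) did not pass, while Plin4 did (0.0417).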
